A study of Mus musculus with 6 samples.

Results

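Cathepsins and legumain are the proteases of the lysosome, and their messenger RNAs were examined in lungs of mice sensitized and challenged with ovalbumin (OVA), which is used to model allergic airway inflammation. The set consisted of the 9 genes Ctsb, Ctsc, Ctsd, Ctsh, Ctsk, Ctsl, Ctss, Ctsz and Lgmn, taken by the gene symbol that the platform annotation gives a probe, and a gene was kept where its probe had a value on at least 4 of the 6 arrays. Each gene had 1 probe, and 7 genes were kept, of 9774 genes so measured in the whole series. Each of the 6 two-colour arrays carried amplified lung RNA of 1 OVA-treated C57 mouse against amplified RNA pooled from lungs of control C57 mice, whose number the labels do not give. Sex, age and dose of OVA are not given either, and the pool is 1 control sample on all arrays, so the spread between control mice was not measured.

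The values are log ratios of both channels, read as log2. The labels do not state which channel is on top, so every sign below is that of the deposited ratio, whose direction is unknown, and no sign is assigned to the OVA lungs. Clca1, Muc5ac and Retnla, genes known for their induction in lungs of OVA-challenged mice, had mean log2 ratios of -3.06, -2.63 and -2.81 on this scale. Mouse 3 had the opposite sign for these 3 genes, at 0.84, 0.22 and 1.00, while the other 5 mice lay between -4.95 and -1.36. Folds are sizes apart from the pool, and they would be larger if the logarithm were natural (for Ctsc 5.38-fold in place of 3.21-fold).

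Cysteine cathepsins share a papain-like fold, are made as inactive proenzymes, carry mannose 6-phosphate for their transport and become active in the acid lysosome. Ctsc removes dipeptides from the granule serine proteases of neutrophils, mast cells and cytotoxic lymphocytes and so activates them. Ctss cleaves the invariant chain from class II molecules in antigen-presenting cells, and Lgmn, a protease that cuts after asparagine, processes antigens and other cathepsins. Ctsh is known from alveolar type 2 cells, where it takes part in processing surfactant proteins.

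Of the 7 genes, 5 passed the test, 4 with negative and 1 with positive means (limma on all probes, ratio against 0, Benjamini-Hochberg adjusted p below 0.05). Among all 11629 tested probes 24.4% passed, 12.3% with negative means and 12% with positive ones. The negative genes were Ctsc, Lgmn, Ctsz and Ctss, the positive gene was Ctsh, and Ctsk and Ctsb did not pass. Ctsc and Lgmn were also at least 2-fold apart from the pool, and 1.5% of all tested probes had both a call and that size. Of the 7 genes, 5 had a single sign on every array with a value, against 30.2% of all probes. In 4 it was negative, which held for 14.5% of all probes, and in 1, Ctsh, positive, which held for 15.6%. The 4 were Ctsc, Lgmn, Ctss and Ctsk, the last without a call, and Ctss and Ctsk had values on 5 arrays. Ctsz, which passed, had 1 positive value.

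The promoter windows of the 4 genes on the negative side are shown because these genes lay together, with RefSeq sequences of build GRCm38.p6 running 5′ to 3′ on the strand of the gene. Each window has 300 bases, 250 before and 50 after an annotated start, and capitals mark matches on either strand to the motifs listed after them. Ctss is at chr3:95526536-95526835 on the plus strand, Ctsc at chr7:88277835-88278134 on the plus strand and Ctsz at chr2:174438990-174439289 on the minus strand. Lgmn has windows at chr12:102439679-102439978 and chr12:102439043-102439342, both on the minus strand.
Ctss: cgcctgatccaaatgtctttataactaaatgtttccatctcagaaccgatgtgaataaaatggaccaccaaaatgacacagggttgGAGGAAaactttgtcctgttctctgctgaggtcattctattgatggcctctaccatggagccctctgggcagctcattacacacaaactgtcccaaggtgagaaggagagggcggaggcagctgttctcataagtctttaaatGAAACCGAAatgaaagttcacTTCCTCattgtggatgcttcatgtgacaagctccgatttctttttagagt
Ctsc: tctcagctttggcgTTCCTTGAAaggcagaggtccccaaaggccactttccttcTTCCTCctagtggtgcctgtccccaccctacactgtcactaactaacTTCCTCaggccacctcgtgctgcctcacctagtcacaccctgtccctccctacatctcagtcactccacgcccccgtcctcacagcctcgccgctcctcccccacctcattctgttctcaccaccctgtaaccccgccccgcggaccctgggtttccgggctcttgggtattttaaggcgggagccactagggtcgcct
Ctsz: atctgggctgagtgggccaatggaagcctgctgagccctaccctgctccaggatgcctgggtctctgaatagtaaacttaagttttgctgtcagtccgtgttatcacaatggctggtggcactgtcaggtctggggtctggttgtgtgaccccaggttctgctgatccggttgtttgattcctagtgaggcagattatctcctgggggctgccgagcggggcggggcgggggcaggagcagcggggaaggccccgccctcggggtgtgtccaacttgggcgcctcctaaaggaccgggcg
Lgmn, first window: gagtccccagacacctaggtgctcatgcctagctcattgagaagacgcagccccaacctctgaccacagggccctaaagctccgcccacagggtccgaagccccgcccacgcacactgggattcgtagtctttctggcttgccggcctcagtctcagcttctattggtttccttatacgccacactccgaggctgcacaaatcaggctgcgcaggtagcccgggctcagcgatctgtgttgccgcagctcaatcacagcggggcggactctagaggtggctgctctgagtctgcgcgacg
Lgmn, second window: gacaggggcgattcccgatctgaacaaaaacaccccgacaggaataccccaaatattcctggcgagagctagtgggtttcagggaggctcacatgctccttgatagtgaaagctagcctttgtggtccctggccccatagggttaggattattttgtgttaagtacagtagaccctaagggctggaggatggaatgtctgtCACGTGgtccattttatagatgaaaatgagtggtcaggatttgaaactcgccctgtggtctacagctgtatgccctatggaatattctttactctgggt
The motifs searched were GAAANNGAA, the core of an interferon-stimulated response element, TTCNNNGAA, a gamma-activated site, CACGTG, the E-box at the core of the lysosomal CLEAR element, and GAGGAA, a core bound by the myeloid factor PU.1. No match overlapped another. The Ctss window held 1 match to the response element, at -21 to -13 from the first transcribed base, and 8.56% of all 32851 promoter windows hold such a match. The Ctsc window held 1 gamma-activated site, found in 8.3% of windows, at -236 to -228. CACGTG stood in the second Lgmn window at -49 to -44 and occurs in 7.15% of all windows. GAGGAA, which 28.3% of windows hold, occurred in the windows of Ctss and Ctsc, and the Ctsz window held none of these letters. Members outside the negative calls held matches too, in windows not printed here. GAGGAA occurred in that of Ctsk, which did not pass, and CACGTG in those of Ctsd and Ctsl, which were not tested. Ctsb and Ctsh had no window to search. These matches describe letters and were not tested for binding.

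Ctsc, also called dipeptidyl peptidase I, had the lowest mean of the 7. Its log2 ratios were -1.32, -2.32, -0.67, -1.53, -1.89 and -2.37 in mice 1 to 6. All 6 values were negative, with mice 2 and 6 lowest and mouse 3 nearest to 0. The mean was -1.68 ± 0.65 (SD, n = 6; standard error 0.22), 3.21-fold apart from the pool (limma, adjusted p = 0.00516), and 0.301% of all tested probes had a lower mean. Without mouse 3 the mean was -1.89.

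Lgmn was at -1.56, -1.79, -0.44, -1.33, -0.71 and -1.10 in mice 1 to 6. The sign was negative in every mouse, with mice 1 and 2 lowest. Its mean of -1.16 ± 0.51 (SD, n = 6) was 2.23-fold apart from the pool (limma, adjusted p = 0.0065). Ctsc and Lgmn kept their calls when any single mouse was left out.

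Ctsz, also called cathepsin X, a carboxypeptidase of myeloid cells, was at -1.41, -1.42, 0.26, -0.90, -0.84 and -0.77. Mice 1 and 2 were again lowest, and mouse 3 alone was positive. The mean was -0.85 ± 0.61 (SD, n = 6), 1.8-fold apart (limma, adjusted p = 0.0253), or -1.07 ± 0.32 without mouse 3 (limma, adjusted p = 0.00238). Leaving out any other mouse ended the call, with adjusted p between 0.0561 and 0.0776 in limma.

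Ctss had no value in mouse 3 and was at -0.99, -1.60, -0.22, -0.50 and -0.34 in mice 1, 2, 4, 5 and 6. All 5 values were negative, and those of mice 1 and 2 were well below the other 3. The mean of -0.73 ± 0.57 (SD, n = 5), 1.66-fold apart, was close to the threshold (limma, adjusted p = 0.0447). It lost its call when any of the 5 measured mice was left out, with adjusted p up to 0.102, and its mean was -0.51 without mouse 2.

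Ctsh, an aminopeptidase, was the gene on the other side. Its log2 ratios were 0.87, 0.81, 0.29, 0.80, 0.88 and 0.84 in mice 1 to 6. Apart from mouse 3, the values lay close together. The mean was 0.75 ± 0.23 (SD, n = 6), 1.68-fold apart (limma, adjusted p = 0.00338), and 99.1% of all tested probes had a lower mean. Without mouse 3 the mean was 0.84 with an SD of 0.034. Repeated spots of 1 sequence had a larger median SD, 0.09 to 0.14 on single arrays, so this closeness is not read as agreement between mice.

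The Ctsh probe lies 6 numbers from that of Scgb1a1, the secretory protein of club cells, which was at 1.38 ± 0.37 (SD, n = 6). It lies 18 numbers from that of Glul, glutamine synthetase, at 0.80 ± 0.43. Over all tested probes, the mean ratios of pairs 6, 18 or 24 numbers apart had Pearson correlations of 0.133, 0.102 and 0.106, against -0.0229 to 0.0458 at every other distance up to 48, across probes that are not independent. The distances 6, 18 and 24 were set apart after the data were seen, so this contrast is a description and no test. Scgb1a1 was at 0.73 in mouse 3 and between 1.29 and 1.78 in the other 5 mice, so both probes were lowest in mouse 3. The array of mouse 3 had the smallest SD over probes, 0.21. In the other 5 mice the Ctsh values lay too close together to be ranked, between 0.80 and 0.88. The part of Scgb1a1 in the Ctsh ratio was not tested. No other of the 7 probes lay at these distances from a stronger tested probe of its sign with a mean of at least 1 in size. Only tested neighbours were looked at, and most positions beside Ctss and several beside Ctsk held none.

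**Figure D1:**
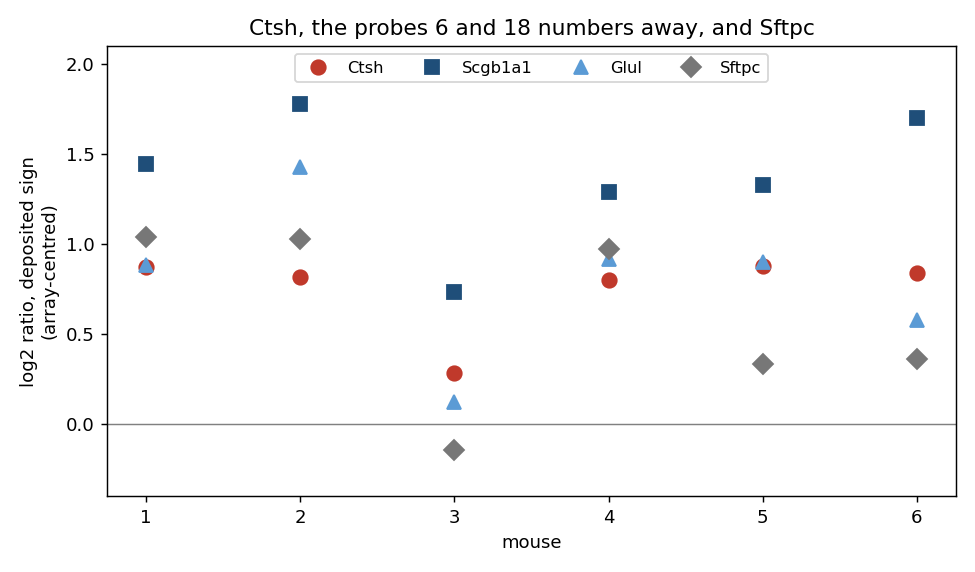
Log2 ratio (deposited sign, array-centred, vertical axis) of Ctsh, of Scgb1a1 and Glul, whose probes lie 6 and 18 numbers away, and of Sftpc in each of the 6 mice (horizontal axis), with 1 point per array. Ctsh is at 0.29 in mouse 3 and between 0.80 and 0.88 in the other mice, and Scgb1a1 lies above Ctsh in every mouse.

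Ctsk, the collagen-degrading cathepsin of osteoclasts and fibroblasts, had no value in mouse 2 and was at -0.02, -0.17, -0.21, -0.15 and -0.42 in mice 1, 3, 4, 5 and 6. All 5 values were negative, but that of mouse 1 was close to 0. The mean of -0.19 ± 0.15 (SD, n = 5) did not pass (limma, adjusted p = 0.0692), though it did with array weights (adjusted p = 0.0382).

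Ctsb, a broadly expressed endopeptidase, was at 0.20, 0.16, 0.03, -0.09, -0.03 and 0.16, with 4 mice above and 2 below 0. Its mean was 0.07 ± 0.12 (SD, n = 6; limma, adjusted p = 0.316), and 61.5% of tested probes had a larger SD. Ctsl, an endopeptidase that acts in many cell types, had values in mice 1, 5 and 6 alone, at 0.10, -0.12 and -0.08, and was not tested. Ctsd, the aspartic protease of the set, had no value on any array.

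**Figure D2:**
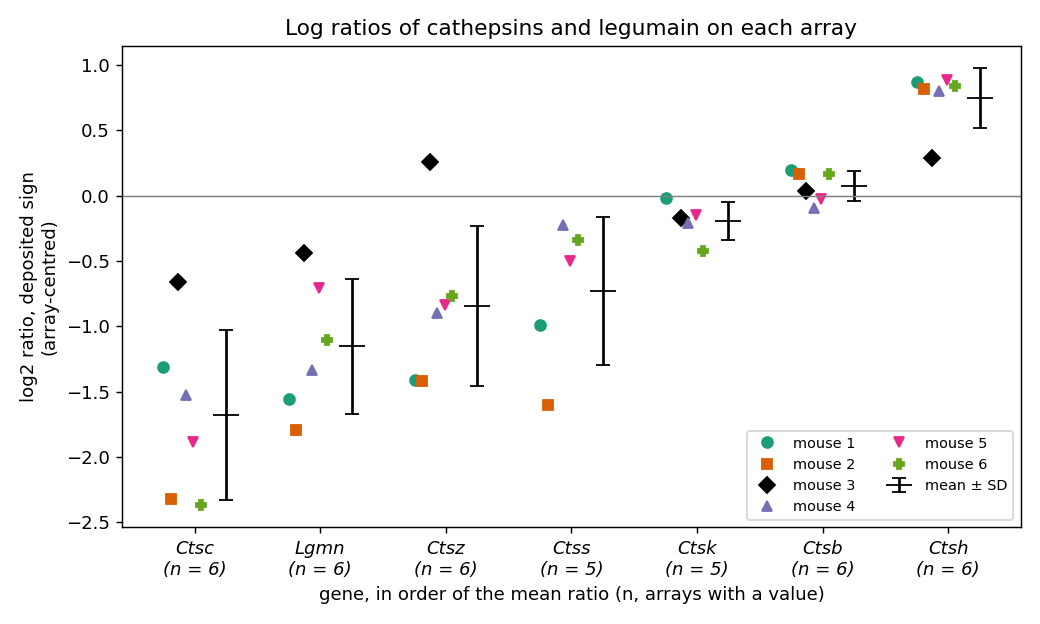
Log2 ratio (deposited sign, array-centred, vertical axis) of the 7 genes in order of their mean (horizontal axis), with 1 symbol per mouse and the mean ± SD in black beside the points. The values of Ctsc and Lgmn lie below 0 and those of Ctsh above 0 in every mouse, and mouse 3 (black diamonds) is nearest to 0 or on the other side for Ctsc, Lgmn, Ctsz and Ctsh.

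Of the 6 differences between neighbours in the order of means, Ctsc to Lgmn and Ctss to Ctsk were smaller than their SD over mice and the other 4 larger. Ctsc was lower than Lgmn in 5 of 6 mice, by 0.53 ± 0.59 (mean difference of the log2 ratios on 1 array, SD), and in mouse 1 the order was the other way. Lgmn and Ctsz differed by 0.31 ± 0.28, with Lgmn lower in 5 of 6 mice, and Ctsz and Ctss by 0.34 ± 0.32, with Ctsz lower in 4 of 5. Ctss was lower than Ctsk in 3 of 4 mice, by 0.31 ± 0.48. Ctsk was lower than Ctsb in 5 of 5 mice by 0.25 ± 0.20, and Ctsb lower than Ctsh in 6 of 6 by 0.68 ± 0.24. These differences describe the 6 arrays and carry no test.

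The mice were not alike. The mean ratio over Ctsc, Lgmn, Ctsz and Ctss lay between -1.79 in mouse 2 and -0.98 in mouse 5, while in mouse 3, where Ctss had no value, it was -0.28. The SD over probes was 0.21 on that array, against 0.32 to 0.47 on the other arrays. Its Pearson correlation with them across 8663 probes, which are not independent, was between 0.17 and 0.42, and other pairs had 0.49 to 0.86. Mouse 2 was lowest for Lgmn, Ctsz and Ctss, and mouse 6 for Ctsc. The arrays had 10922 to 13132 probes with a value, and the number of arrays limits the precision. The labels name neither a batch nor whether RNA was handled together, and dyes were not given, so a dye effect of a single gene cannot be told apart from a difference between OVA lungs and pool.

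**Figure D3:**
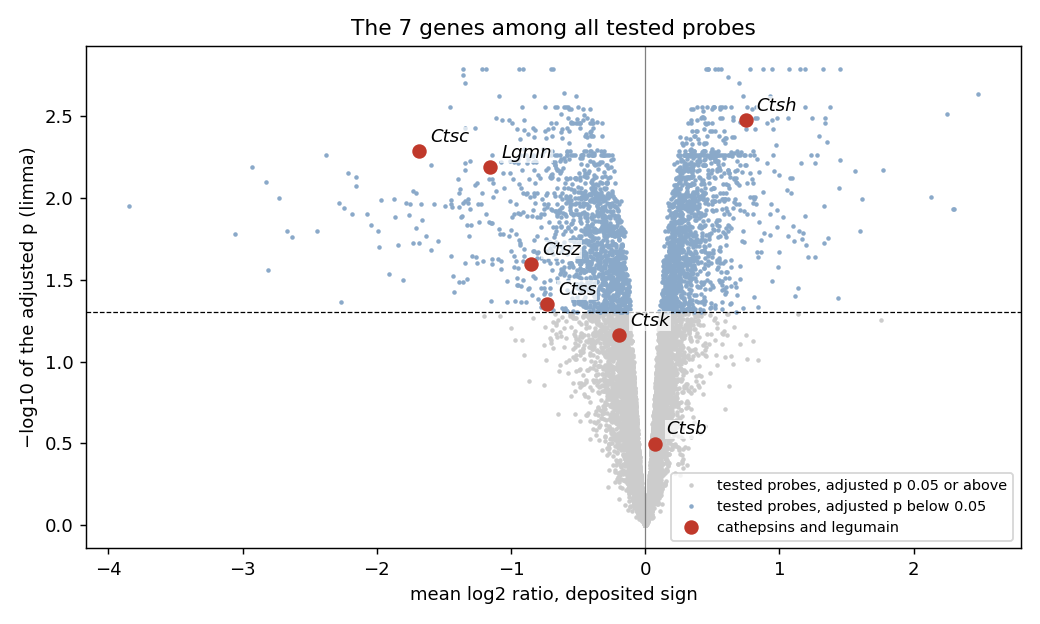
Mean log2 ratio (deposited sign, horizontal axis) and −log10 of the Benjamini-Hochberg adjusted p of limma (vertical axis) for all 11629 tested probes (grey and blue) and the 7 genes (red), with the dashed line at an adjusted p of 0.05. Ctsc, Lgmn, Ctsz and Ctss stand above the line on the negative side and Ctsh on the positive side, while Ctsk and Ctsb are below it.

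Macrophages are rich in these proteases, and of 14 tested macrophage markers 5 were called (35.7%), all negative, with a list median of -0.23. Counts of calls in this and the following lists are to be read against the 24.4% of all tested probes that were called, 12.3% negative and 12% positive. Fcgr1, a high-affinity Fc receptor, was at -1.87, and Aif1, a calcium-binding protein of macrophages, at -1.80. The median of the markers was between -0.66 and -0.17 in mice 1, 2, 4, 5 and 6 and 0.11 in mouse 3. The other called markers were C1qa at -1.36, C1qb at -1.34 and C1qc at -0.47. Of the 14 markers 10 had means below 0, among them Cd68, a lysosomal membrane protein, at -0.23 without a call. Those above 0 were Marco, a scavenger receptor of alveolar macrophages, at 0.44, Pparg at 0.23, Car4 at 0.20 and Siglecf at 0.01. None of those above 0 was called. Of 5 monocyte markers 2 were called (40%), both negative (median -0.67), and of 5 dendritic cell markers 2 (40%), both negative (median -0.06). Of 10 neutrophil markers 2 (20%) and of 6 osteoclast markers 1 (16.7%) were called, all negative (medians -0.16 and -0.11). A ratio from whole lung cannot tell more cells of a type from more RNA per cell, and the part of these cells in the ratios of the proteases was not tested.

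On the side of Ctsh, 7 of 10 club cell markers were called (70%), all positive (median 0.84). Of 10 alveolar type 2 markers 4 were called (40%), and they lay on both sides: the surfactant proteins Sftpc at 0.60 and Sftpa1 at -0.61, Sftpd at -0.23 and the chitinase-like Chil1 at -1.31. The median of this list was -0.11, between -0.47 and 0.20 in single mice. Calls in the other marker lists were 5 of 9 for endothelial cells, all positive, 2 of 10 for alveolar type 1 cells, 4 of 9 for ciliated cells, 4 of 11 for fibroblasts, 3 of 8 for T cells, 1 of 3 for eosinophils, 0 of 8 for B cells and 0 of 5 for mast cells and basophils. Ratios give no levels, so the labelled tissue could not be checked against its markers.

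Other cathepsins had mean ratios between -0.38 and 0.41. Their values in single mice ran farther, from -0.96 for Ctsw to 0.94 for Ctsf, both in mouse 1. Of 10 measured genes of this list, which includes the cathepsin-like Tinag and Tinagl1, 3 were called (30% of the list), 2 negative and 1 positive (median -0.10). Ctsf, a cysteine cathepsin, was at 0.41 ± 0.35 (SD, n = 6; limma, adjusted p = 0.0475) and the aspartic protease Ctse at -0.13 ± 0.04 (limma, adjusted p = 0.0351). Cts7, one of the cathepsins of the rodent placenta, was at -0.24 ± 0.11 (SD, n = 5; limma, adjusted p = 0.022). In limma, Ctsf lost its call without mouse 1, 2, 4 or 6, Cts7 without mouse 2, 4 or 6 and Ctse whichever mouse was left out. Placental cathepsins are close relatives in sequence, and cross-hybridization of their probes was not examined.

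Cystatins and related proteins block these proteases, and the list examined here also holds serpins. Of 9 measured cystatins and other inhibitors 2 were called (22.2%), both positive, with a list median of 0.145, while the median over all tested probes was -0.0033. Cst3, cystatin C, a secreted inhibitor of cysteine cathepsins, was at 0.27, 0.78, 0.52, 0.27, 0.42 and 0.31 in mice 1 to 6. All 6 values were positive, mouse 3 included. Its mean was 0.43 ± 0.20 (SD, n = 6), 1.35-fold apart (limma, adjusted p = 0.00929), and it kept the call when any single mouse was left out. Serpinb6a, a serpin that inhibits cathepsin G, a protease outside the set, was at 0.38 ± 0.31 (limma, adjusted p = 0.043). It lost its call without mouse 1, 2, 3, 4 or 6.

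The machinery that carries these enzymes to the lysosome had 4 calls among 10 genes (40%), 3 negative and 1 positive (median -0.09). M6pr, the cation-dependent receptor for mannose 6-phosphate, was at -0.52, -0.54, -0.41, -0.60, -0.34 and -0.25. It was negative in all 6 mice with a mean of -0.44 ± 0.13 (limma, adjusted p = 0.00408). The larger receptor Igf2r was at -0.32 ± 0.20 (SD, n = 5; limma, adjusted p = 0.0319), and Ap1g1, a subunit of the adaptor that packs both receptors into vesicles, at -0.31 ± 0.11 (limma, adjusted p = 0.00702). Gga2, another adaptor of these receptors, was at 0.19 ± 0.14 (limma, adjusted p = 0.0452). M6pr and Ap1g1 kept their calls whichever mouse was left out, whereas Igf2r lost it without mouse 1, 3, 4 or 6 and Gga2 whichever mouse was left out.

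The proton pump that acidifies the lysosome had 3 calls among 14 genes (21.4%), all negative (median -0.08). The catalytic subunit Atp6v1a was at -0.61 ± 0.26 (SD, n = 6; limma, adjusted p = 0.00659), Atp6v1h at -0.49 ± 0.27 (limma, adjusted p = 0.0127) and the accessory protein Atp6ap2 at -0.33 ± 0.10 (limma, adjusted p = 0.00552). These 3 were negative in every mouse, and leaving out a mouse ended none of their calls. Of 12 lysosomal membrane genes 2 were called (16.7%), Laptm4a at -0.75 ± 0.40 (limma, adjusted p = 0.0109) and Tmem192 at 0.13 ± 0.06 (limma, adjusted p = 0.0376), the second losing its call whichever mouse was left out.

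The list of other lysosomal hydrolases had 10 calls among 29 genes (34.5%), 6 negative and 4 positive (median -0.07). It also holds proteins that are not hydrolases, such as Psap and Ifi30. Psap, the precursor of the saposins that assist sphingolipid breakdown, was at -0.92, -1.31, -0.10, -0.10, -1.35 and -1.41 in mice 1 to 6. Mice 3 and 4 were near 0 and the other 4 well below. Its mean of -0.86 ± 0.62 (SD, n = 6) passed (limma, adjusted p = 0.0243), but not without mouse 1, 2, 5 or 6. Ifi30, a thiol reductase induced by interferon-gamma, was at -0.63 ± 0.38 (limma, adjusted p = 0.0152), the glucuronidase Gusb at -0.55 ± 0.40 (limma, adjusted p = 0.0255) and the carboxypeptidase Scpep1 at -0.47 ± 0.31 (limma, adjusted p = 0.0207). Ifi30 lost its call without mouse 2 or 4, Gusb without any mouse but mouse 3, and Scpep1 without mouse 4. The positive calls were Dnase2a, the acid DNase, at 0.40 ± 0.12 (SD, n = 6; limma, adjusted p = 0.00461), Ppt2, a thioesterase, at 0.32 ± 0.16 (limma, adjusted p = 0.0121), the galactosylceramidase Galc at 0.34 and the glucosaminidase Naglu at 0.17. A second probe of Dnase2a was at 0.32 ± 0.20 and passed (limma, adjusted p = 0.0211), while a second probe of Galc was at -0.05 and did not (limma, adjusted p = 0.507). Of the 10 calls in this list, Dnase2a and Ppt2 alone held whichever mouse was left out.

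Class II molecules, whose invariant chain Ctss cleaves, had 3 calls among 9 genes (33.3%), all negative (median -0.48). H2-Aa was at -1.16, -0.94, -0.33, -0.79, -0.82 and -0.88 in mice 1 to 6, negative throughout, with mouse 3 nearest to 0. The mean was -0.82 ± 0.28 (SD, n = 6; limma, adjusted p = 0.00388). H2-Eb1 was at -0.64 ± 0.35 (limma, adjusted p = 0.0122), and its probe is one of those at 6, 18 or 24 numbers from a stronger probe of its sign. H2-Ab1 was at -0.48 ± 0.38 (limma, adjusted p = 0.0345), a call lost without mouse 2, 4, 5 or 6. The invariant chain itself, Cd74, had values of -1.31, -0.64, -0.11, -0.80, -0.10 and -0.04 and did not pass (limma, adjusted p = 0.0732). Cd74 was chosen after its values were seen.

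Serine proteases of granules, a class with members that Ctsc activates, had 1 call among 9 genes, or 11.1% against 24.4% of all probes. Their median was 0.0016, and whether Ctsc activates each of these genes' products was not examined. The called gene was Gzmm, a granzyme of natural killer cells, at -0.17 ± 0.09 (SD, n = 6; limma, adjusted p = 0.0278). None of these 9 genes had a mean ratio below -0.43 or above 0.15, beside -1.68 for Ctsc. Most genes of this list belong to single kinds of granulocytes and lymphocytes, and 13 of its 20 genes were on the array.

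Among transcription factors of lysosomal and osteoclast genes, 3 of 7 were called (42.9%), 1 negative and 2 positive (median -0.09). Tfec, a relative of Tfeb found mainly in macrophages, was at -0.83, -0.96, -0.24, -1.09, -0.76 and -1.15 in mice 1 to 6. All values were negative, mouse 3 again nearest to 0. Its mean was -0.84 ± 0.33 (SD, n = 6; limma, adjusted p = 0.00547). Tfeb, the main regulator of lysosomal genes through the CLEAR element, was at 0.16 ± 0.11 (limma, adjusted p = 0.0496), a call lost without mouse 1, 2, 3, 4 or 6, and Usf2, which binds the same E-box, at 0.17 ± 0.02 (limma, adjusted p = 0.0108). Tfec and Usf2 kept their calls whichever mouse was left out, but Usf2 was only 1.13-fold apart. Repeated spots of 1 sequence had a median SD of 0.09 to 0.14 on single arrays. On single arrays Usf2 was between 0.15 and 0.21, close to this spread of single spots. Its mean is over 6 arrays, and the spread of single spots is not the error of such a mean. The called means of Ctse at -0.13 and Tmem192 at 0.13 were smaller still. In all 9 lists together 31 of 109 genes were called, or 28.4% against 24.4% of all tested probes, and 13 of them kept the call whichever mouse was left out.

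**Figure D4:**
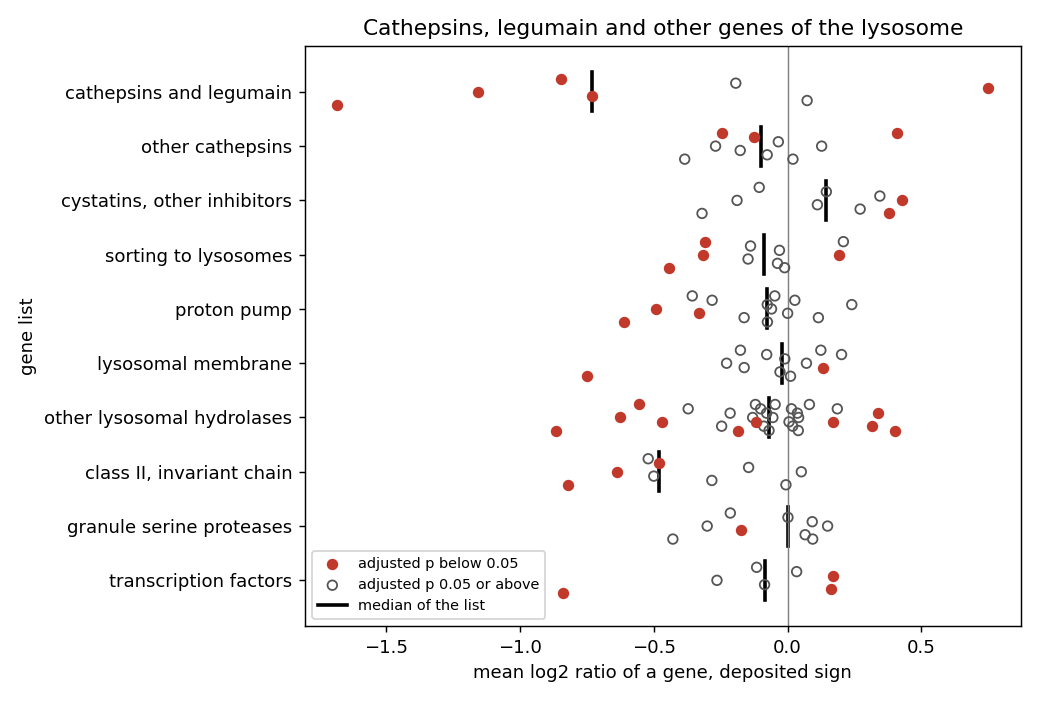
Mean log2 ratio (deposited sign, horizontal axis) of each measured gene in the set of cathepsins and legumain and in 9 lists of related genes (rows), with genes past an adjusted p of 0.05 filled in red, others open and the median of each list as a black bar. Ctsc at -1.68 and Lgmn at -1.16 lie farther to the left than any gene of the other lists, Ctsh at 0.75 lies farthest to the right, and the medians of the 9 lists run from -0.48 to 0.145.

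Genes whose ratios over the 6 mice lay nearest to those of each called gene, by Euclidean distance among probes measured on all arrays, are given as a description. Nearest to Ctsc were Cmpk2, a mitochondrial nucleotide kinase induced by interferon, at a distance of 0.866, then Chil1 at 1.07 and the collagen chain Col1a1 at 1.15. Nearest to Lgmn were Spon2, an extracellular matrix protein, at 0.433, the inhibitory Fc receptor Fcgr2b at 0.525 and the mitochondrial folate enzyme Mthfd2 at 0.558. Ctsz lay nearest to Tcstv3 at 0.297, the inhibitory receptor Pirb at 0.313 and the interferon-responsive Epsti1 at 0.375. Ctsh lay nearest to Tmem9 at 0.268, Ppp1r14a at 0.286 and 2810025M15Rik at 0.326. Ctss has no value in mouse 3 and was not compared.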

How the data were processed

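The deposited series table holds 1 log ratio per spot and array for the 6 mice, read here as log2 ratios. Neither the scanner, the background correction and the normalization nor the base and direction of the logarithm are given in the sources used here. Each array was centred on the median of the 8663 probes measured on all arrays, which moved it by 0.012 at most. Left out were 170 rows that repeat 10 sequences and 4 plant rows. Symbols come from the platform annotation and were updated for 14445 of 14722 probes through a RefSeq gene table (GRCm38.p6, used for names and promoters), and 277 kept the older name. Probes with values on at least 4 arrays, 11629 in all, went into limma 3.58.1 (R 4.3.3; lmFit against 0, intercept alone, eBayes, two-sided), with Benjamini-Hochberg adjustment over all of them at 0.05. The fit was tested on simulated data. For lists, the probe with most values, then the lowest number, stood for a gene.

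The members and lists were chosen with earlier results of these data known. Named were all members, up to 4 called genes per pathway list and up to 2 per marker list, and the 3 nearest genes of each called member. Clca1, Muc5ac, Retnla, Scgb1a1, Glul, Cd68, Marco, Sftpc, Sftpd, Dnase2a, Ppt2, Galc and Naglu were named outside this rule after their values were seen. So were C1qa, C1qb, C1qc, Pparg, Car4 and Siglecf and the list genes Cd74, Ctsw, Tinag and Tinagl1. Alternatives were no centring, scale and quantile normalization, weights for arrays, robust or unmoderated variances, probes on all or on at least 2 arrays, means per gene, stricter thresholds and leaving out each mouse. The omission of probes beside a stronger probe was chosen after seeing the data. Plots were made in Python 3.11.15 (matplotlib 3.10.9).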

Additional observations from a re-analysis of the deposited data

Results flagged for a closer look

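Dixon's test was applied to the 32 genes named from the set and its pathway lists. In 4 of them the value of 1 mouse stood apart from the others. Chance gives this in about 5% of unselected groups, but the list genes were named because they passed limma. All genes also share the same 6 arrays, so the 5% is no rate to judge these 4 by. For Ctsh and Gusb the mouse apart was mouse 3, whose array had an SD over probes of 0.21, the smallest of all. Ctsh was at 0.286 in mouse 3, against 0.803 to 0.881 in the other 5 mice. Gusb was at 0.215 in mouse 3, against -0.891 to -0.546 in the others. Laptm4a was at 0.037 in mouse 1, against -1.09 to -0.731 in the others. Gzmm was at 0.012 in mouse 6, against -0.242 to -0.189 in the others.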

How the results depend on the processing

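No paired analysis was possible because each array holds a mouse of its own and all share 1 pool. No mean of the 7 genes changed sign under any alternative run. Ctsc and Lgmn passed under all 18, with means between -1.89 and -1.54 and between -1.30 and -1.03, and Ctsh failed only the floor of 2-fold and had no value once probes beside a stronger probe were left out. Ctsz lost its call under 8 of 18 and Ctss under 9 of 17 alternatives, and Ctsk gained one under 1 of 17, with array weights. Ctss and Ctsk have no value where all 6 arrays are required. With single mice left out, 3 to 5 of the 7 genes passed, and 1325 to 3036 probes in all, of which 665 to 1539 were negative, and 15 to 32 genes of the pathway lists. Only leaving out mouse 3 kept all 5 calls of the set. Unmoderated variances gave 3 of the 7 genes, 1444 probes (639 negative) and 16 list genes. At an adjusted p of 0.01 in limma these counts were 3, 746 (330 negative) and 8. With the floor of 2-fold they were 2, 174 (124 negative) and 0, although 31 list genes passed limma without the floor and 53 had an unadjusted p under 0.05. Causes of these changes were not tested beyond the stricter rule or the smaller number of arrays. Signal over background is not given, so a limit by brightness could not be set.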
